A study of Mus musculus with 13 samples.

Results

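The genes described here encode the core machinery that makes and uses microRNAs, the Microprocessor, export, dicing, Argonaute and GW182 proteins. They are the 10 rows of the table whose gene name is Eif2c1, Eif2c2, Eif2c3, Eif2c4, Dicer1, Dgcr8, Xpo5, Tarbp2, Tnrc6a or Tnrc6b, of 23236 rows in all. Each name matched 1 row, and Eif2c1 to Eif2c4 are the older symbols of Argonaute 1 to 4. They were measured by poly(A)-selected RNA-seq in C2C12 cells, a mouse myoblast line that fuses into myotubes when serum is withdrawn. The tested library is labelled siLinc-Yy1 and its control siNC, by the usual reading an siRNA against the long noncoding RNA Linc-Yy1 and a control siRNA. Both are labelled as myoblasts, and no other allele, agent or time is given. Each condition is 1 library of 1 cell line, so every difference describes a pair of libraries, with no replicate error. The other 11 samples of the series were not used here.

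MicroRNA hairpins are cut out of their primary transcripts in the nucleus by the RNase Drosha and its partner Dgcr8, together called the Microprocessor. Xpo5 carries the hairpins to the cytoplasm, where Dicer1 trims them with help from the double-stranded RNA binding protein Tarbp2. An Argonaute protein then takes up a strand as its guide, and Tnrc6 (GW182) proteins recruit the enzymes that shorten and decap the target mRNA. Transfected siRNAs enter the same Argonaute proteins, and Argonaute 2 is known for cleaving targets that pair fully with the guide. In muscle, Dicer is known to be needed for the muscle microRNAs and for normal development.

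The muscle identity of the cells was visible in both libraries. The 6 muscle lineage markers, among them the determination factors Myod1 and Myf5, ranged between 21.9 and 487 FPKM in siLinc-Yy1 and between 18.8 and 322 FPKM in siNC. FPKM counts fragments relative to transcript length and library size, so levels of genes of different length can be compared. The 8 markers of blood, endothelium, fat, epithelium, glia and germ line reached at most 0.310 FPKM in siLinc-Yy1 and 0.377 FPKM in siNC. The row lincYy1, the targeted RNA, stood at 0.227 FPKM in siLinc-Yy1 and 0.360 FPKM in siNC, with a q-value of 0.878 in the authors' deposited table, so its level does not check the label. The FPKM steps of low single-exon genes put the depth at about 47.6 M fragments in siLinc-Yy1 and 66.1 M in siNC, if no further scaling was applied. Transcript lengths were not used here, so the fragments behind each member were not computed. In such bulk RNA, fewer cells of a type and less RNA per cell cannot be told apart.

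Some of these genes carry microRNAs themselves. RefSeq (GRCm38.p6) places 7 mature microRNAs of 4 hairpin genes inside 3 members, all on the strand of the host, and they are shown because they lie within members of their own pathway. Mir1306, Mir693 and Mir5113 have rows that share the loci of Dgcr8, Xpo5 and Tnrc6b in the table, and the miR-3618 hairpin was matched to no row. The seed, bases 2 to 8, is in capitals, and the 7 seeds are all different.
mmu-miR-1306-5p: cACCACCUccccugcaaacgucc
mmu-miR-1306-3p: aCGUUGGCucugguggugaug
mmu-miR-3618-5p: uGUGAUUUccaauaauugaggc
mmu-miR-3618-3p: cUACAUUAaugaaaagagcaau
mmu-miR-693-5p: cAGCCACAuccgaaaguuuuc
mmu-miR-693-3p: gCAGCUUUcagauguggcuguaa
mmu-miR-5113: aCAGAGGAggagagagauccugu
The miR-1306 and miR-3618 hairpins lie in Dgcr8, and the Microprocessor is known to cleave hairpins in the Dgcr8 message, which limits its own supply. The Mir1306 row was listed at 0 in siLinc-Yy1 and in siNC, as was the Mir693 row within Xpo5. The Mir5113 row within Tnrc6b was listed at 0 in siLinc-Yy1 and stood at 4.42 FPKM in siNC, with status LOWDATA rather than OK. Of all 617 microRNA rows, 483 were listed at 0 in both libraries, poly(A)-selected libraries are not built to hold mature microRNAs, and a listed 0 can be a failed estimate, so nothing is read from these rows about their hosts.

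All 10 members were detected, over a wide range of levels. The range from the lowest to the highest member spanned 81.8-fold in siLinc-Yy1 and 62.0-fold in siNC. Tarbp2 led in both libraries, followed by Xpo5 and Eif2c2, and Eif2c3 and Eif2c4 came last. The order of levels was the same for 8 of the 10, and the other pair, Tnrc6a and Dgcr8, changed places. These 2 lay close together in both libraries, and without replicates no order between neighbours can be tested.

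**Figure D1:**
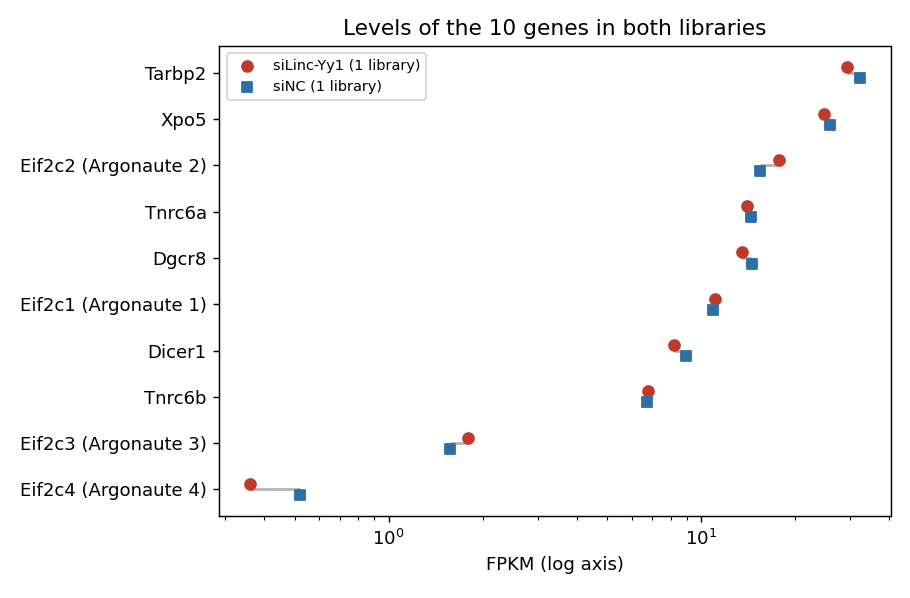
FPKM (log axis) of each of the 10 genes in siLinc-Yy1 (circles) and siNC (squares), 1 library each, ordered by the level in siLinc-Yy1. The markers of a gene lie close together for every gene down to Eif2c3, and are farthest apart for Eif2c4, at 0.359 FPKM in siLinc-Yy1 and 0.522 FPKM in siNC.

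No member differed by 2-fold between the libraries. Of the 9 members with a mean of at least 1 FPKM, 0 were at least 2-fold higher or lower and 0 passed 1.5-fold, a fold being taken on the scale of log2(FPKM + 1), which understates the change of low genes. Among all 11792 rows past that filter, 1.57% differed by at least 2-fold, 1.39% being higher and 0.178% lower in siLinc-Yy1, and 3.8% by at least 1.5-fold. The members' count of 0 of 9 is near that background. The authors' deposited table called 0 of the 10 members, against 1.62% of its 14366 rows with status OK. The log2 fold change, siLinc-Yy1 over siNC, had a median of -0.041 over the 9 members and -0.021 over all rows past the filter. The 9 values ran between -0.13 for Tarbp2 and 0.19 for Eif2c2, whereas the central 95% of all rows ran between -0.38 and 0.71. Scaling both libraries to equal summed FPKM would lower the median of all rows by 0.29 on the log2 scale, so the values are read relative to that median.

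The deposited p-values give an idea of the precision. If each is taken as a normal test of the log ratio, the authors' deposited table implies a 95% interval for the FPKM ratio of each member, which rests on the authors' error model and not on replicates. These intervals reached a factor of 1.28 (Eif2c1) to 1.46 (Dgcr8) to either side of the ratio. They included 1 for 9 members, Eif2c4 being the exception, and left out both a halving and a doubling for the same 9. A p-value that misses the threshold does not show that the levels were equal, and differences inside these intervals were not resolved.

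**Figure D2:**
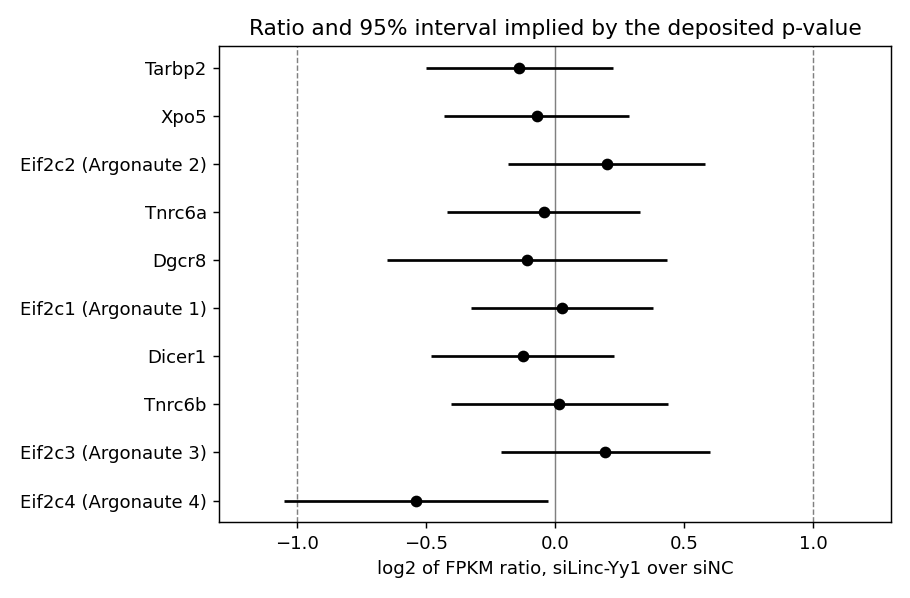
Log2 of the FPKM ratio of siLinc-Yy1 over siNC for each gene (points, no pseudocount), with the 95% interval implied by the p-value in the authors' deposited table (lines). The dashed lines mark a 2-fold difference, and the interval of Eif2c4, with ratio bounds of 0.483 and 0.982, is the one that does not reach a ratio of 1.

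Dgcr8, the RNA-binding partner of Drosha, lies in a locus of chromosome 16 listed from 18248975 to 18289261 (mm9). It measured 13.6 FPKM in siLinc-Yy1 and 14.6 FPKM in siNC, a ratio of 0.928 with an implied interval of 0.638 to 1.35 by the authors' deposited table. Its locus in the table also holds Mir1306 and Trmt2a, a tRNA methyltransferase gene. The interval of Dgcr8 was the widest of the 10, and whether the shared locus bears on that was not tested. Trmt2a stood at 17.6 FPKM in siLinc-Yy1 and 18.45 FPKM in siNC. Drosha, the RNase itself and no member of the list, measured 35.6 FPKM in siLinc-Yy1 and 34.4 FPKM in siNC. Drosha thus exceeded Dgcr8 by 2.62-fold in siLinc-Yy1 and 2.35-fold in siNC.

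Xpo5, or exportin-5, which moves hairpins out of the nucleus, lies on chromosome 17 from 46339803 to 46379248. Its level was 24.8 FPKM in siLinc-Yy1 and 26.0 FPKM in siNC, a ratio of 0.952. Ran, the GTPase that exportins need to bind their cargo, measured 167 FPKM in siLinc-Yy1 and 133 FPKM in siNC. Its log2 fold change of 0.33 was close to that of other rows of its level, since it stood at 0.013 once a running median along rows sorted by level was subtracted.

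Dicer1, the RNase that cuts the hairpin to a duplex, lies on chromosome 12 from 105925951 to 105990162. It measured 8.22 FPKM in siLinc-Yy1 and 8.96 FPKM in siNC, a ratio of 0.917 with an implied interval of 0.717 to 1.17 by the authors' deposited table. Its level was below that of its partner in both libraries. Tarbp2, which binds Dicer and helps to hand the duplex to Argonaute, lies on chromosome 15 from 102348622 to 102354107. It measured 29.4 FPKM in siLinc-Yy1 and 32.4 FPKM in siNC, a ratio of 0.909. Tarbp2 exceeded Dicer1 by 3.58-fold in siLinc-Yy1 and 3.61-fold in siNC, so their balance was alike in the pair of libraries. Prkra, the related protein PACT that also binds Dicer, stood at 12.2 FPKM in siLinc-Yy1 and 14.9 FPKM in siNC.

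The Argonaute genes were led by Argonaute 2. Eif2c2, on chromosome 15 from 72932054 to 73015377, measured 17.7 FPKM in siLinc-Yy1 and 15.4 FPKM in siNC. Its ratio of 1.15 had an implied interval of 0.882 to 1.495 and a q-value of 0.969 in the authors' deposited table. The log2 fold change of 0.19 was the highest of the 9 members past the filter, 0.21 above the median of all rows, and 0.19 above it with equal summed FPKM. The central 95% of the 2519 rows of 10 to 20 FPKM ran between -0.33 and 0.32, and Eif2c2 lay inside it.

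Eif2c1, encoding Argonaute 1, lies on chromosome 4 from 126112256 to 126145665 and came second. It measured 11.1 FPKM in siLinc-Yy1 and 10.9 FPKM in siNC, a ratio of 1.02. Eif2c3, encoding Argonaute 3, lies on the same chromosome from 126017921 to 126106786. It measured 1.80 FPKM in siLinc-Yy1 and 1.57 FPKM in siNC, a ratio of 1.14. Of the 946 rows of 1 to 2 FPKM, the central 95% of log2 fold changes ran between -0.47 and 0.67, and Eif2c3, at 0.12, was well inside.

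Eif2c4, encoding Argonaute 4, lies on chromosome 4 from 126166786 to 126210702 and was the scarcest member. It measured 0.359 FPKM in siLinc-Yy1 and 0.522 FPKM in siNC, and so did not pass the filter of a mean of 1 FPKM. The ratio was 0.688. In the authors' deposited table the p-value was 0.0393 and the q-value after adjustment over all genes was 0.520, so the difference did not pass. With 1 FPKM added its log2 fold change was -0.16. With equal summed FPKM it was -0.26. Relative to the median of all rows it stood at -0.14 at the authors' scaling and at 0.045 with equal summed FPKM. The added 1 FPKM damps such a low gene, and damps its shift on rescaling too, so that change of sign arises from the added value. Without it, rescaling changes the ratio of every gene by the same factor. The ratio is therefore the better guide to the size of its difference, and 0.688 is its value at the authors' scaling.

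The sum of the 4 Argonaute genes was 31.0 FPKM in siLinc-Yy1 and 28.5 FPKM in siNC. Shares within the family do not depend on the scaling between libraries. Eif2c2 made up 57.2% of the sum in siLinc-Yy1 and 54.3% in siNC, and Eif2c1 35.9% in siLinc-Yy1 and 38.4% in siNC. Eif2c3 added 5.79% in siLinc-Yy1 and 5.52% in siNC. The share of Eif2c4 was 1.16% in siLinc-Yy1 and 1.83% in siNC. Argonaute 1 and 2 together thus carried most of the Argonaute message in both libraries, and no share differed by more than 2.90 percentage points. The precision of these shares is unknown, as each comes from 1 library with no fragment counts.

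**Figure D3:**
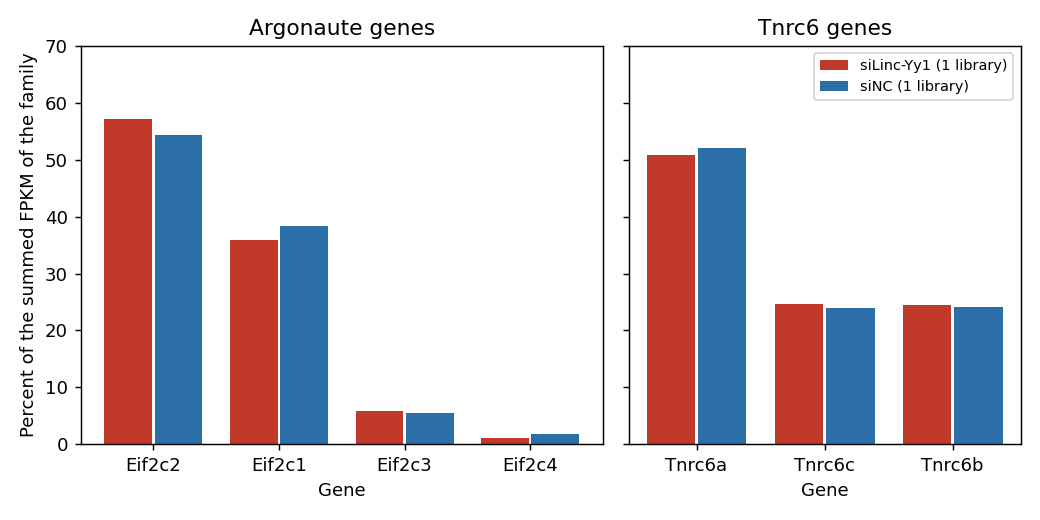
Percent of the summed FPKM of the Argonaute genes (left panel) and of the Tnrc6 genes (right panel) taken by each gene, in siLinc-Yy1 (left bar of each pair) and siNC (right bar), 1 library each. Eif2c2 takes 57.2% in siLinc-Yy1 and 54.3% in siNC, and Tnrc6a 50.9% in siLinc-Yy1 and 52.0% in siNC.

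Eif2c3, Eif2c1 and Eif2c4 are neighbours within 193 kb of chromosome 4. Eif2c3 and Eif2c1 are 5.47 kb apart, and Eif2c1 and Eif2c4 21.1 kb. Despite this, Eif2c1 exceeded Eif2c3 by 6.19-fold in siLinc-Yy1 and 6.95-fold in siNC. It exceeded Eif2c4 by 31.0-fold in siLinc-Yy1 and 20.9-fold in siNC. The sequences just upstream of their starts are shown because these neighbours differ so much in level. Each is the 250 bases before a RefSeq start (GRCm38.p6, minus strand), and capitals mark the GC box GGGCGG or its complement CCGCCC.
Ago1 (Eif2c1), chr4:126468584-126468833: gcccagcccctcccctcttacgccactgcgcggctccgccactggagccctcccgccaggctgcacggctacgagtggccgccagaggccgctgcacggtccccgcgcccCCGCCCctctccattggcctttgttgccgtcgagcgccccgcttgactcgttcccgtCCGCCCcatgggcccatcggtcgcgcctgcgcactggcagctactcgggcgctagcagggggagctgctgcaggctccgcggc
Ago3 (Eif2c3), chr4:126429543-126429792: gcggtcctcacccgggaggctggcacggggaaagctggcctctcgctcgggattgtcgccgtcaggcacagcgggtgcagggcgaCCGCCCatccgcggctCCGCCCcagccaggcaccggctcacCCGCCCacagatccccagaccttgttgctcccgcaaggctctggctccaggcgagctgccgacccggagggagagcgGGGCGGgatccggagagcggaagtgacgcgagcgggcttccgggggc
Ago4 (Eif2c4), chr4:126533459-126533708: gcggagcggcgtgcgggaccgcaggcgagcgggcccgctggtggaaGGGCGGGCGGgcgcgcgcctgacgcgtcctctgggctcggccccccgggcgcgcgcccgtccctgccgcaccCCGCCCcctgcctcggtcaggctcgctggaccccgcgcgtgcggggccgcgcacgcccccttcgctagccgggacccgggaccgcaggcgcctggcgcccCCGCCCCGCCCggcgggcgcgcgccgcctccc
Ago1 has a second listed start whose window overlaps this one. These 250 bases hold 2 GC boxes for Ago1, 4 for Ago3 and 5, some overlapping, for Ago4. In the full window of 300 bases, which includes 50 bases after the start, they were 2, 5 and 5. CpG dinucleotides numbered 38, 37 and 54 for Ago1, Ago3 and Ago4 in the same full window. All 3 windows were GC-rich, with 75.7%, 74.7% and 83.3% G or C.

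RefSeq windows were found for 9 of the 10 members, 11 windows in all, and none was found for Eif2c2. The windows of Eif2c1 overlap and share their GC boxes and CCAAT, so that gene enters those counts more than once. The windows set beside them were not limited to genes expressed in these cells. The 11 windows held 9 to 54 CpG dinucleotides with a median of 37, against a median of 7 over all 32851 windows of the same length. The GC box occurred in 9 of the 11, against 35.7% of all windows, and CCAAT in 6 of the 11, against 37.4%. TATAAA occurred in 0 of the 11, against 13.6%. The core AANATGG of the motif of Yy1, the protein that Linc-Yy1 is named for, occurred in 1 of the 11, the downstream start of Tnrc6b, and in 16.1% of all windows. That match starts at base 43 counted from the start. All 4 motifs were searched on both strands, none of the 4 contains another, and a match or its absence is a description of these letters.

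The GW182 genes Tnrc6a and Tnrc6b each had nearly the same FPKM in both libraries at the authors' scaling. Tnrc6a, on chromosome 7 from 130267398 to 130338810, measured 14.1 FPKM in siLinc-Yy1 and 14.5 FPKM in siNC, a ratio of 0.970. Tnrc6b, on chromosome 15 from 80541742 to 80771516, measured 6.79 FPKM in siLinc-Yy1 and 6.71 FPKM in siNC, a ratio of 1.01. Tnrc6c, the other gene of the family and no member of the list, stood at 6.81 FPKM in siLinc-Yy1 and 6.66 FPKM in siNC. The sum of the 3 was 27.7 FPKM in siLinc-Yy1 and 27.9 FPKM in siNC. Tnrc6a took 50.9% of it in siLinc-Yy1 and 52.0% in siNC, and Tnrc6b 24.5% in siLinc-Yy1 and 24.1% in siNC. The summed GW182 and summed Argonaute messages were thus of similar size in both libraries.

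The members sit at levels where the libraries differed little. Among the 6866 rows of 5 to 40 FPKM, which include 8 of the members, the median log2 fold change was -0.045 and 37.5% were higher in siLinc-Yy1. Among the 120 rows of at least 400 FPKM the median was 0.77 and 95.8% were higher in siLinc-Yy1. After subtraction of the running median, the 9 members past the filter ran between -0.16 and 0.23, with a median of 0.012. Eif2c2 stood at 0.23, Eif2c3 at 0.22, Eif2c1 at 0.11 and Tnrc6b at 0.10 after that step, and Tarbp2 at -0.16 and Xpo5 at -0.078. Tnrc6a stood at 0.012, Dicer1 at -0.027 and Dgcr8 at -0.040.

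**Figure D4:**
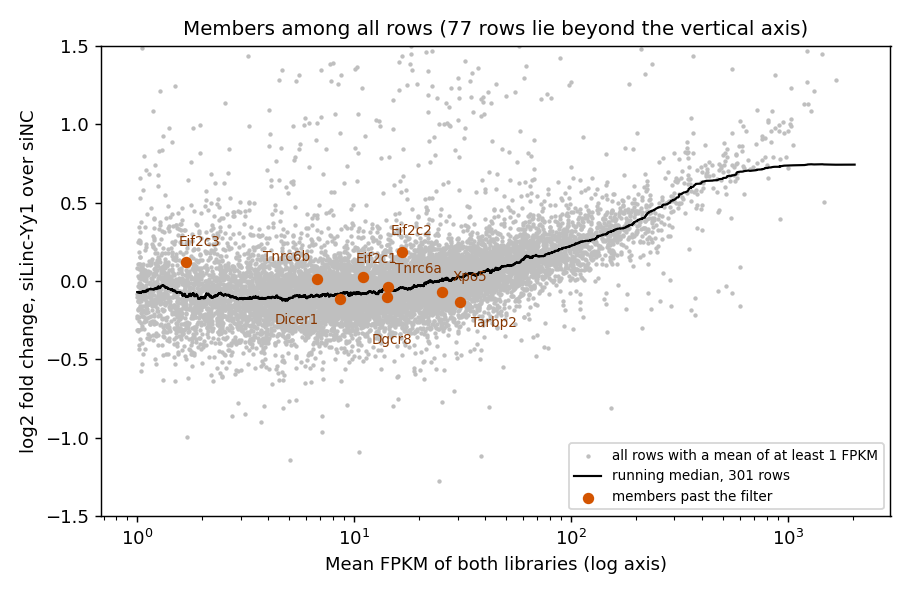
Log2 fold change (siLinc-Yy1 relative to siNC) against the mean FPKM (log axis) for all 11792 rows past the filter (grey), with the 9 members past it (orange) and the running median over rows ordered by level (line). The members lie close to the line, between -0.16 and 0.23 from it, and the line climbs at high levels, where there is no member.

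The 5 related lists, chosen by role, hold 89 genes that work beside the members, of which 87 were found and 84 passed the filter. Of the 84, 0 were at least 2-fold changed, against 1.57% of all rows. The median log2 fold change over the 84 was -0.022, close to the -0.021 of all rows, with 39 above 0 and 45 below. As the median of all rows is below 0, more of all rows lay below 0 than above it too. At 1.5-fold, 3 were higher in siLinc-Yy1 and 0 lower, against 3.28% and 0.517% of all rows. These 3 were Hsp90ab1, Hspa8 and Pabpc1, and the authors' deposited table called 0 of the 87.

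Among the 14 nuclear processing partners the median log2 fold change was 0.081, and -0.049 after subtraction of the running median. The 15 dicing, loading and chaperone genes had a median of 0.16, and -0.075 after subtraction. Hsp90ab1, a cytosolic HSP90 chaperone of the kind that loads Argonaute, measured 1155 FPKM in siLinc-Yy1 and 587 FPKM in siNC, a ratio of 1.97. Hspa8, its constitutive HSP70 partner, measured 961 FPKM in siLinc-Yy1 and 562 FPKM in siNC, a ratio of 1.71. Less the running median, Hsp90ab1 stood at 0.25 and Hspa8 at 0.058 on the log2 scale. For the most abundant rows the running median takes in fewer rows above than below, and it climbs with level. Both values can therefore be too high.

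The 15 measured Argonaute binding proteins had a median log2 fold change of -0.087, with 5 above 0 and 10 below. Of the 6866 rows of 5 to 40 FPKM, the level of most of these genes, 37.5% were above 0. The count is near that share. Fmr1, the fragile X protein, measured 17.6 FPKM in siLinc-Yy1 and 21.3 FPKM in siNC. Snd1, a nuclease found in Argonaute complexes, measured 124 FPKM in siLinc-Yy1 and 98.5 FPKM in siNC. These 2 differed in opposite directions, and neither reached 1.5-fold.

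The 32 measured genes of deadenylation and decapping, the steps that GW182 proteins set off, had a median of -0.031, with 14 above 0 and 18 below. Most of them lay at 5 to 40 FPKM, where 37.5% of all rows were above 0. Pabpc1, the cytoplasmic poly(A) binding protein, measured 636 FPKM in siLinc-Yy1 and 364 FPKM in siNC, a ratio of 1.75. Less the running median it stood at 0.15 on the log2 scale, which can be too high, as for Hsp90ab1 and Hspa8. Tob1, an adaptor of the CCR4-NOT deadenylase, measured 35.0 FPKM in siLinc-Yy1 and 27.2 FPKM in siNC. The scaffold Cnot1, looked up after its value was seen, measured 37.4 FPKM in siLinc-Yy1 and 35.2 FPKM in siNC.

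Of the 11 genes of microRNA tailing and turnover, 8 passed the filter. All 8 were below 0, with a median log2 fold change of -0.071, or -0.018 less the running median. At their level of 5 to 40 FPKM, 37.5% of all rows were above 0. Zcchc6 (-0.0088) and Zcchc11 (-0.0056), terminal uridylyltransferase genes, nonetheless lay above the median of all rows. Pnpt1, a mitochondrial polynucleotide phosphorylase, measured 13.4 FPKM in siLinc-Yy1 and 17.1 FPKM in siNC. Papd4, a cytoplasmic poly(A) polymerase, measured 15.9 FPKM in siLinc-Yy1 and 19.9 FPKM in siNC. None of the 8 reached 1.5-fold. Of the germ-line piRNA pathway, which uses the Piwi relatives of the Argonautes, 10 genes were found and 0 passed the filter. They reached at most 0.522 FPKM in siLinc-Yy1 and 0.565 FPKM in siNC.

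**Figure D5:**
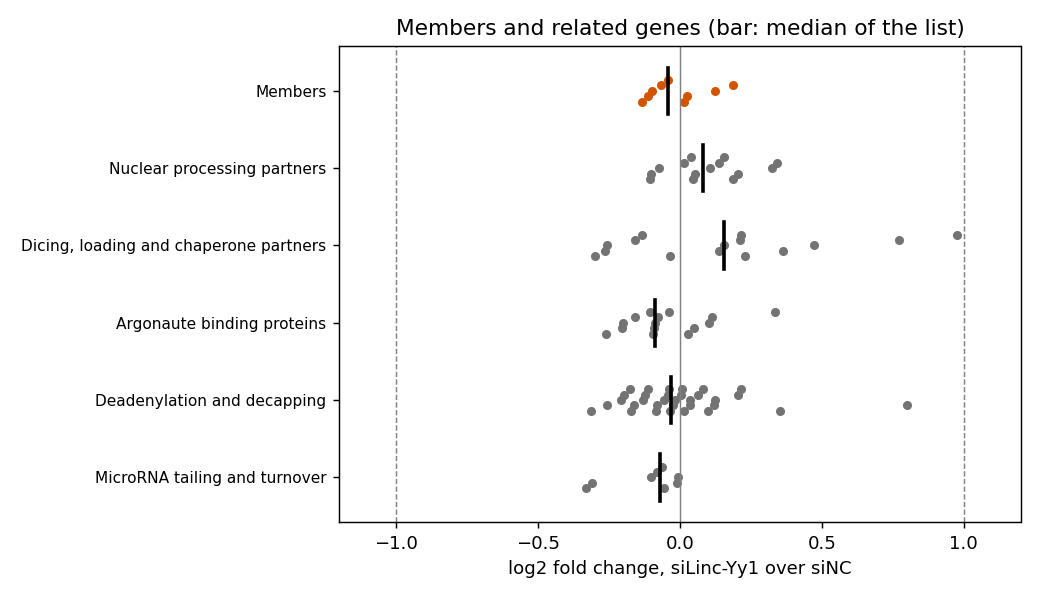
Log2 fold change (siLinc-Yy1 relative to siNC) for the members and the genes of the 5 related lists past the filter (points), with the median of each list (bars). Dashed lines mark a 2-fold difference, which no gene reaches, and Hsp90ab1, at 0.98, comes nearest.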

How the data were processed

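RNA-seq of myoblasts labelled siLinc-Yy1 and siNC, 1 library each, was read from a gene-level table present as 2 identical copies. It holds FPKM values that the authors deposited, with columns in the layout of Cuffdiff, and the deposited p-values and q-values of the authors' test of the same pair. The header names the conditions siNC and siLinc-Yy1, in that order, for the first and second FPKM column. Tools named in the submitters' processing notes are Cuffdiff 2.0.4, Cufflinks 2.1.1 and TopHat2 2.0.4, with the build mm9. Scaling between libraries, annotation and strand use were not given in the sources used here. How reads were divided between genes at 1 locus was not given either.

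After 1 was added to each FPKM, the log2 fold change was taken as the siLinc-Yy1 value minus the siNC value on the log2 scale. A gene was counted at an absolute value of at least 1, among rows with a mean of at least 1 FPKM. With 1 library per condition no p-value was computed. The implied interval divides the log2 ratio by the normal quantile of the deposited p-value. Depth was read from a line fitted to 1/FPKM against length over receptor rows at 1 fragment. Within 0.02 fragments, 49.5% of the low rows in siLinc-Yy1 and 58.8% in siNC were whole, so no count test was run. The call rule, the running median and the depth fit were tested on simulated data.

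All 10 members were named. So were, from each related list, the 2 genes of status OK past the filter with the largest absolute change, and Drosha, Tnrc6c, Prkra and Ran. A gene that this rule takes is not reported here. With 2 libraries no gene was named as alike in pattern. Members and lists were chosen with earlier results of these data known. Alternatives were the pseudocount, filter, scaling, level correction, status and fold. Python 3.11.15, pandas 2.3.3, numpy 2.4.6, scipy 1.17.1 and matplotlib 3.10.9 were used.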

Additional observations from a re-analysis of the deposited data

How the results depend on the processing

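No member passed 2-fold under any of the alternatives run, and at the main settings none passed 1.5-fold or was called in the authors' deposited table. Of 59 recomputed member values, 54 kept their sign and stayed inside the implied interval, and all 59 ran between -0.45 and 0.23. With both libraries at equal summed FPKM, the median of all rows was -0.31 and the log2 fold changes of Eif2c1 (-0.27), Eif2c2 (-0.12), Eif2c3 (-0.080) and Tnrc6b (-0.27) turned below 0. The medians then were -0.34 for the members, -0.24 for nuclear processing partners, -0.16 for dicing, loading and chaperone partners, -0.38 for Argonaute binding proteins, -0.33 for deadenylation and decapping and -0.38 for tailing and turnover, by construction of the shift. Less the running median, Tnrc6a and the median of the members stood at 0.012, nuclear processing partners at -0.049 and dicing, loading and chaperone partners at -0.075, because the running median is above 0 for abundant genes and below it for others. Eif2c4 has no value there, being under the filter. At 1.5-fold, 3 genes of the related lists counted in place of 0. With Tnrc6a and Tnrc6b alone, Tnrc6a took 67.5% of their sum in siLinc-Yy1 and 68.4% in siNC, and Tnrc6b 32.5% in siLinc-Yy1 and 31.6% in siNC, by the smaller denominator. Over all rows, 164 were at least 2-fold higher and 21 lower at the authors' scaling (88.6% higher), against 91 and 44 at equal sums (67.4%). They were 109 and 7 with a pseudocount of 5 FPKM, 174 and 39 without a filter, 140 and 7 from 5 FPKM, and 387 and 61 at 1.5-fold. The share of fragments within the Argonaute family was not run, since it needs coding lengths that were not used here. No paired analysis was possible because each condition has 1 library. What depth limits was read from the implied intervals alone, and no library could be left out.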

Other observations

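Genes beside the members were looked up as well. Within 15 kb of the members but outside their loci, 14 other genes had a mean of at least 1 FPKM, beside 6 of the 10. Of these 14, 0 differed by 1.5-fold, against 3.8% of all rows, so the count is near the background. The 14 had log2 fold changes between -0.27 and 0.54. Rows sharing a member's locus were left out of this count. Among those left out were Trmt2a and the LOWDATA row Mir5113, at 0 FPKM in siLinc-Yy1 and 4.42 FPKM in siNC. Ranbp1, a cofactor of Ran in nuclear transport, measured 333 FPKM in siLinc-Yy1 and 234 FPKM in siNC. Its locus ends 188 bases from the locus that Dgcr8 shares with Trmt2a. Pcbp2, a poly(C) binding protein gene near Tarbp2, measured 165 FPKM in siLinc-Yy1 and 113 FPKM in siNC. Their log2 fold changes were 0.51 for Ranbp1 and 0.54 for Pcbp2, just under 1.5-fold. The median was 0.46 over the 175 rows of 200 to 400 FPKM, the level of Ranbp1, and 0.29 over the 447 rows of 100 to 200 FPKM, the level of Pcbp2. Polh, a DNA polymerase gene 229 bases from Xpo5, measured 14.5 FPKM in siLinc-Yy1 and 17.8 FPKM in siNC. Adar and Adarb1, which edit double-stranded RNA, were both lower in value in siLinc-Yy1, Adar at 21.3 FPKM in siLinc-Yy1 and 25.6 FPKM in siNC and Adarb1 at 6.17 FPKM in siLinc-Yy1 and 7.81 FPKM in siNC. The Adar row has status FAIL, so its estimate is doubtful. These genes were picked after their values were seen, and none was called in the authors' deposited table.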
